A study of Mus musculus with 6 samples.

Results

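The metalloproteinases, their ADAM and ADAMTS relatives and the tissue inhibitors of metalloproteinases (TIMPs) were examined in whole-lung RNA of Scnn1b-transgenic and wild-type mice. Members were the probe sets with exactly 1 platform symbol beginning with Mmp, Adam, Adamts, Adamtsl or Timp and a digit. Mmp8, Mmp9, Mmp12 and Mmp25 were left out, and the brightest probe set stood for each gene. This gave 79 members among 19935 genes: 18 Mmp, 34 Adam, 18 Adamts, 5 Adamtsl and 4 Timp genes. Genes were matched by name alone, but the rule and the 4 genes it leaves out were set with earlier results of these data known. At an unadjusted p under 0.05, 3 of those 4 were higher (Mmp12, Mmp25 and Mmp9) and Mmp8 was lower. There were 3 Scnn1b-Tg and 3 wild-type lungs, both of the C57BL/6 background, with 1 array for each. The transgene carries Scnn1b, the gene of the β subunit of the airway's epithelial sodium channel, and the study looked for genes that play into emphysema, in which alveolar walls are lost. The labels give no age, sex, batch, or promoter of the transgene, and do not state how many animals the 3 lungs of a genotype stand for. All p-values here therefore describe the spread between these samples, which may be technical.

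Matrix metalloproteinases are zinc-dependent enzymes, secreted or held at the cell surface, that cut collagens, elastin, proteoglycans and many signalling proteins. ADAMs are transmembrane relatives that shed the outer part of other membrane proteins. ADAMTS enzymes are secreted and bind matrix through thrombospondin repeats, and ADAMTS-like proteins keep those repeats without the protease domain. TIMPs occupy the active site of these enzymes and block it. In lung the balance between the enzymes and their inhibitors is a classical theme of emphysema, because alveolar walls depend on an intact net of elastic fibres and collagen.

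Values are RMA intensities on a linear scale, and each log2 fold change sets Scnn1b-Tg over wild type with its standard error (SE) from limma. Intensities of different probe sets are not transcript levels that can be ranked against each other. A gene was called at a limma p under 0.05 after Benjamini-Hochberg adjustment over all 19935 genes. Scnn1b itself measured 1405, 1527 and 1333 in Scnn1b-Tg lung, against 172, 108 and 139 in wild-type lung, a log2 fold change of 3.37 ± 0.16 (limma adjusted p = 0.00241), and was the only gene called. Lung markers were bright on every array, with the club cell gene Scgb1a1 between 3379 and 3660.3 in Scnn1b-Tg and between 3948 and 4579 in wild type. The alveolar type 2 gene Sftpc lay between 7656 and 8534 in Scnn1b-Tg and between 7241 and 8338 in wild type. Wild type replicate 2 and Scnn1b-Tg replicate 3 stood apart from the other arrays over all genes, and many values below are also given with an array left out.

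None of the 79 members was called, beside a background of 0.00502% of genes called (1 of 19935). At an unadjusted p under 0.05 there were 4 members higher in Scnn1b-Tg (5.06% of members, against a background of 3.96% of genes) and 0 lower (background 2.05%), beside 6.01% of genes in either direction. The 4 were Adam8, Timp1, Adam34l and Adam15. The arrays of the genotypes did not overlap for 5 members that were higher (6.33%, background 6.26%) and 2 that were lower (2.53%, background 4.41%), beside 10.7% of genes in either direction. Those 5 were Adam8, Timp1, Adam19, Adam34l and Adamts20, and those 2 were Mmp17 and Adam11. Adam19, Adamts20, Mmp17 and Adam11 were named after their values were seen. These shares lay near those among all genes, and the members' median log2 fold change was 0.01, against 0.01 over all genes. In all 49 members had a positive log2 fold change (62.0%, background 53.2%), a count that was 32 of 79 when each array was centred on its median, where 38.6% of all genes were positive. The members' log2 fold changes ran from -0.16 to 0.61.

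**Figure D1:**
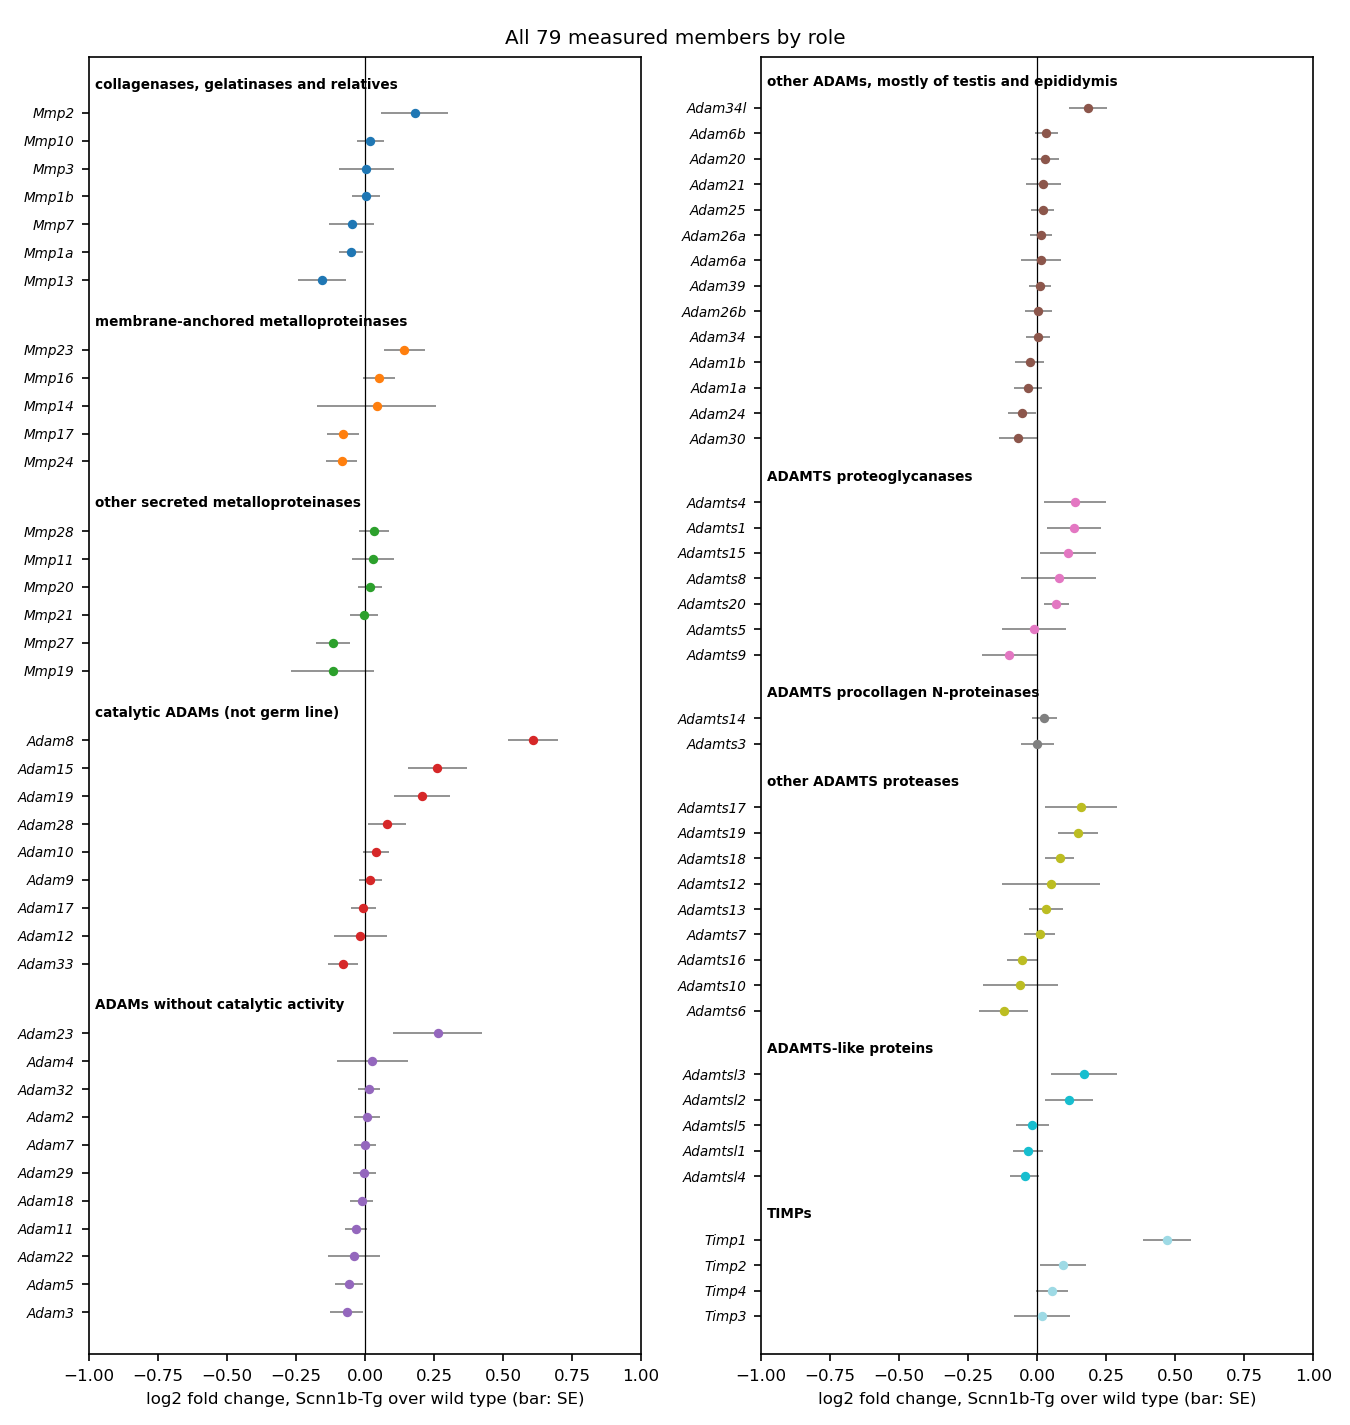
Log2 fold change of Scnn1b-Tg over wild type for each of the 79 members, grouped by role (points, with the SE as bars). Adam8 at 0.61 and Timp1 at 0.47 lie farthest from 0, and most other members lie within 0.2 of it.

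Adam8 and Timp1 had the largest values. They are an ADAM of myeloid cells and an inhibitor that many cells release in injury and inflammation. The 250 bases before the annotated start of each gene are shown because these are the members whose arrays were most clearly apart. They come from RefSeq (GRCm38.p6), at chr7:139992563-139992812 on the minus strand for Adam8 and chrX:20869916-20870165 on the plus strand for Timp1. On both strands 4 motifs were searched: AP-1 (TGANTCA), a STAT6 type (TTC and GAA with 4 bases between them), a PU.1 type (gaggaagt) and an NF-kB type. Neither window holds any of them, so no base is in capitals, and this says only that those letters are not there.
Adam8: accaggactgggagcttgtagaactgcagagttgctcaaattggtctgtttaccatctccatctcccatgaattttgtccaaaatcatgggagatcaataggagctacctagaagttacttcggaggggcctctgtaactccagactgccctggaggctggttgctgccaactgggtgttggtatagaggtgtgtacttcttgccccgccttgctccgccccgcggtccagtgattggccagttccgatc
Timp1: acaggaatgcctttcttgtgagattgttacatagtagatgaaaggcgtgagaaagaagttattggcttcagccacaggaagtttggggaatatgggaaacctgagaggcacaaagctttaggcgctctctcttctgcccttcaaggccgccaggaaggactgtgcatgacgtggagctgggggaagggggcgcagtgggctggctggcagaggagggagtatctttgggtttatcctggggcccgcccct

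Adam8, a sheddase found on macrophages, neutrophils and eosinophils, had intensities of 91.2, 82.9 and 73.7 on the Scnn1b-Tg arrays, against 57.6, 49.6 and 55.1 on the wild-type arrays. The lowest Scnn1b-Tg array lay above the highest wild-type array, and the Scnn1b-Tg arrays were spread more widely. The means were 82.6 ± 8.77 in Scnn1b-Tg and 54.1 ± 4.08 in wild type (SD, n = 3 each). This was a log2 fold change of 0.61 ± 0.09 (95% interval 0.39 to 0.82), or 1.52-fold, with a limma adjusted p of 0.151. Among the 19935 genes its p-value ranked 38. The adjusted p was 0.0264 when the 6645 dimmest genes were dropped, 0.0239 when limma used an intensity trend with robust variance, and 0.0452 after 16 was subtracted from each intensity. In the other 13 of 16 alternatives it missed the threshold and reached 0.561 without wild type replicate 3, while the log2 fold change stayed between 0.53 and 0.80 over all 16.

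Timp1, a secreted inhibitor of most MMPs and of Adam10, had intensities of 64.9, 62.3 and 68.9 on the Scnn1b-Tg arrays, against 50.7, 49.8 and 41.4 on the wild-type arrays. All Scnn1b-Tg arrays were above all wild-type arrays, and wild type replicate 3 was the lowest. The means were 65.4 ± 3.33 in Scnn1b-Tg and 47.3 ± 5.16 in wild type (SD, n = 3 each). The log2 fold change was 0.47 ± 0.09 (95% interval 0.27 to 0.68), or 1.39-fold, with a limma adjusted p of 0.236, and its p-value ranked 83 among all genes. None of the 16 alternatives called it, and its limma adjusted p lay between 0.0729 and 0.633 over them. With 1 array left out its log2 fold change ran from 0.38 to 0.52, the lowest without wild type replicate 3.

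**Figure D2:**
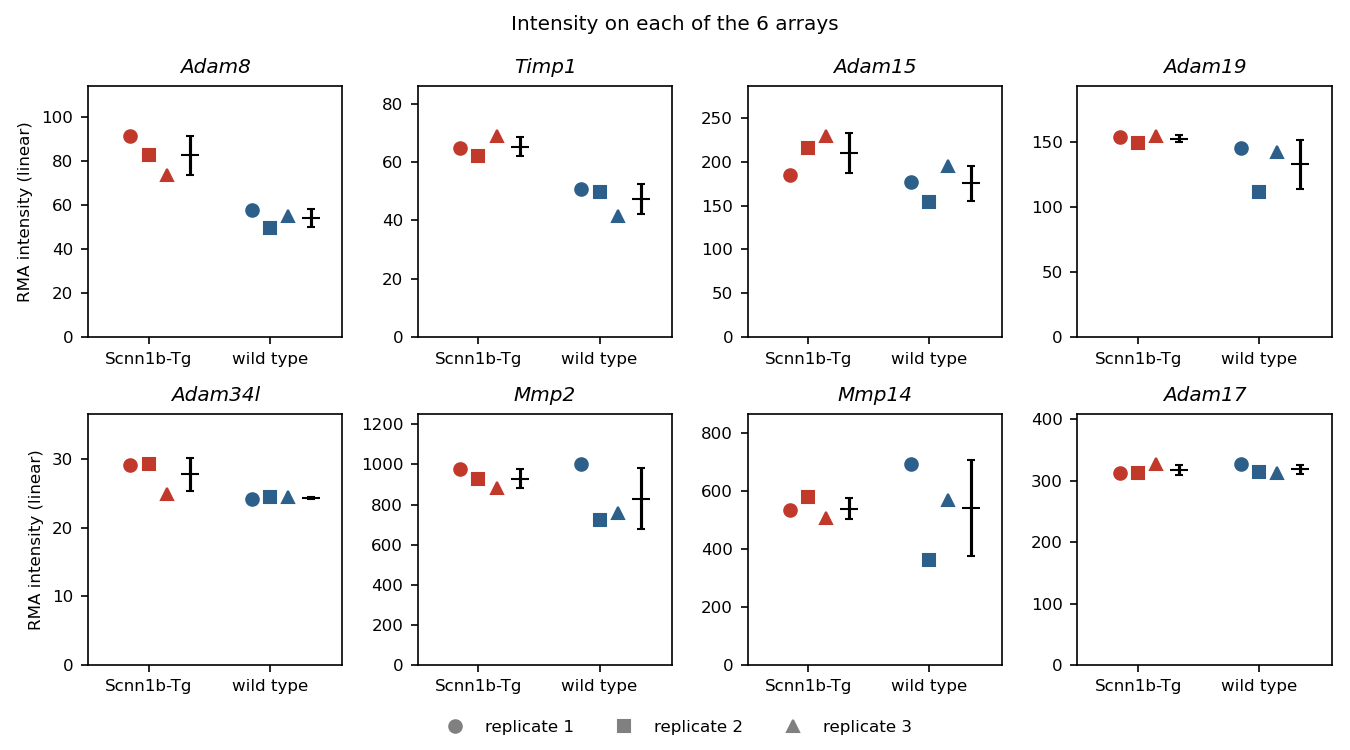
RMA intensity (linear, axis from 0) of 8 members on each array, with Scnn1b-Tg in red and wild type in blue, 1 marker shape for each replicate number, and the mean with its SD (n = 3) in black. For Adam8, Timp1, Adam19 and Adam34l the genotypes do not overlap, while for Mmp14 the wild-type arrays span 364 to 694 around the Scnn1b-Tg arrays.

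Many myeloid markers had higher values on the Scnn1b-Tg arrays, though 0 were called. Among macrophage markers 9 of 10 had a positive log2 fold change (background 53.2% of genes), with a median of 0.35. Of these, 7 were higher with arrays that did not overlap (background 6.26%). Their summed intensity lay between 4177 and 4755 on the Scnn1b-Tg arrays, against between 4127 and 5024 on the wild-type arrays, a sum held mostly by the lysozyme gene Lyz2. Lyz2 measured 3403, 3543 and 2899 in Scnn1b-Tg lung, against 3156, 4030.2 and 3520.1 in wild-type lung. The integrin gene Itgam measured 128, 87.3 and 104 in Scnn1b-Tg lung, against 64.6, 50.2 and 54.3 in wild-type lung. The F4/80 gene Adgre1 measured 169, 113 and 106 in Scnn1b-Tg lung, against 79.1, 68.6 and 76.1 in wild-type lung. Both were fully apart and highest on Scnn1b-Tg replicate 1, as Adam8 and Siglecf were, but most macrophage markers did not have this order. Among the Scnn1b-Tg arrays, Itgax and Lyz2 were highest on replicate 2. Cd68, Csf1r, Mrc1, Mertk and Marco were highest on replicate 3, where Adam8 was lowest of the Scnn1b-Tg arrays. Eosinophil markers were positive for 5 of 5 (background 53.2%), among them Siglecf, which is also in the macrophage list. Of these, 4 were higher with arrays that did not overlap (background 6.26%). Ccr3 measured 199, 133 and 74.4 in Scnn1b-Tg lung, against 50.9, 42.9 and 48.5 in wild-type lung. Ccr3, Prg2, Il5ra and Siglecf fell from Scnn1b-Tg replicate 1 to replicate 3, as Adam8 did, while Epx rose. The eosinophil sum lay between 252 and 430.1 on the Scnn1b-Tg arrays, against between 204 and 213 on the wild-type arrays. Neutrophil markers were positive for 5 of 8, and their sum lay between 560.0 and 840.0 on the Scnn1b-Tg arrays, against between 368 and 492 on the wild-type arrays. That gap lay in Retnlg, which measured 562, 331 and 245 in Scnn1b-Tg lung, against 189, 94.4 and 145 in wild-type lung. Without Retnlg, a choice made after seeing the data, the other 7 neutrophil markers summed between 278 and 315 in Scnn1b-Tg, against between 274 and 303 in wild type, and overlapped. Their median log2 fold change was 0.01, and S100a8, Elane and Mpo were negative. Several of these markers were dim, with means of 24.2 for Il5ra, 26.1 for Epx, 27.4 for Elane, 28.6 for Ly6g and 30.1 for Mpo. The lowest probe sets on the arrays read 18.3 to 18.6. The part of these markers in the values of Adam8 and Timp1 was not tested. In whole lung, more cells of a type and more RNA in each cell cannot be told apart.

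The left-out metalloproteinases of phagocytes gave the nearest comparison within the gene family. Mmp25, a membrane-anchored enzyme of leukocytes, measured 45.9, 45.7 and 40.6 in Scnn1b-Tg lung, against 33.1, 30.4 and 32.7 in wild-type lung, a log2 fold change of 0.46 ± 0.07. Mmp12, the macrophage elastase, measured 358, 550.1 and 228 in Scnn1b-Tg lung, against 131, 76.4 and 77.4 in wild-type lung, and was highest on Scnn1b-Tg replicate 2, whereas Adam8 was highest on replicate 1. Mmp9, a gelatinase, gave 0.30 ± 0.08 and Mmp8, the neutrophil collagenase, -0.12 ± 0.05. The largest log2 fold change among the 18 Mmp members, 0.18 for Mmp2, was smaller than those of Mmp9, Mmp12 and Mmp25. That difference between genes was not tested. Those genes were left out with earlier results of these data known, so the order is no result about the members.

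**Figure D3:**
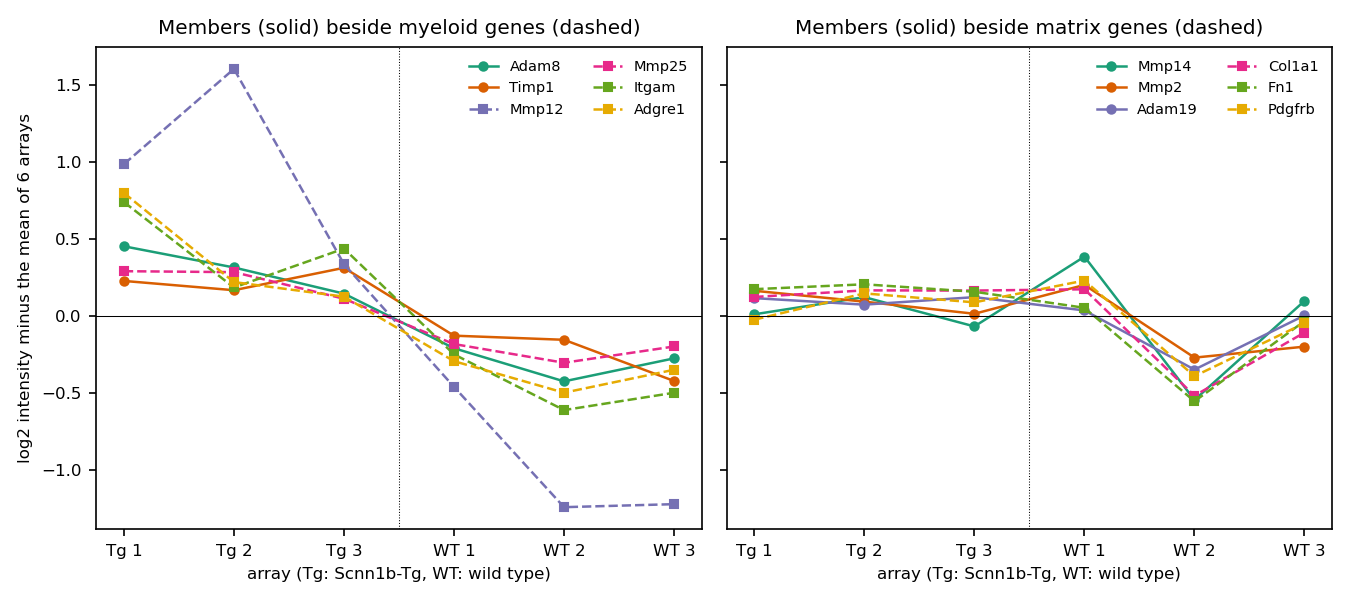
Log2 intensity minus the mean of the 6 arrays for members (solid lines) and other genes (dashed lines), with the Scnn1b-Tg arrays left of the wild-type arrays. Left, Adam8, Timp1, Mmp12, Mmp25, Itgam and Adgre1 are above 0 on all Scnn1b-Tg arrays and below it on all wild-type arrays. Right, Mmp14, Mmp2, Adam19, Col1a1, Fn1 and Pdgfrb are all lowest on wild type replicate 2.

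The other TIMPs showed smaller differences than Timp1. Timp2, which blocks MMPs and also takes part in the activation of pro-Mmp2 at the cell surface, had intensities of 560.4, 569.6 and 592 on the Scnn1b-Tg arrays, against 598, 478 and 544 on the wild-type arrays, with wild type replicate 2 the lowest. Its log2 fold change was 0.09 ± 0.08 (95% interval -0.10 to 0.29, limma adjusted p = 0.941) and was 0.01 without that array. Timp3 is the inhibitor that binds to matrix and also blocks Adam17, and mice without it develop enlarged airspaces. It measured 696, 798 and 747 on the Scnn1b-Tg arrays, against 636, 819.8 and 768 on the wild-type arrays, with overlapping groups and a log2 fold change of 0.02 ± 0.10 (95% interval -0.22 to 0.26), whose sign turned in 3 of 16 alternatives. Timp4 measured 28.97, 32.1 and 28.6 on the Scnn1b-Tg arrays, against 29.4, 27.9 and 29.04 on the wild-type arrays, a log2 fold change of 0.05 ± 0.06. The 4 TIMP genes thus all had positive values, with a median of 0.07, but the intervals of Timp2, Timp3 and Timp4 included 0.

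Among secreted MMPs that cut collagen, gelatin and other matrix proteins, no member passed an unadjusted p of 0.05, and 4 of 7 were positive. Mmp2, the gelatinase of fibroblasts, had intensities of 976, 929 and 880.0 on the Scnn1b-Tg arrays, against 1002, 722 and 759 on the wild-type arrays. The wild-type arrays reached both above and below the Scnn1b-Tg arrays. Its log2 fold change of 0.18 ± 0.12 (limma adjusted p = 0.916) was 0.09 when wild type replicate 2 was dropped and 0.33 when wild type replicate 1 was. Mmp13, a collagenase, had intensities of 28.8, 29.4 and 27.2 on the Scnn1b-Tg arrays, against 29.4, 36.3 and 29.9 on the wild-type arrays. Wild type replicate 2 was the highest, and the log2 fold change of -0.16 ± 0.09, the lowest among the 79 members, was -0.06 without that array. The stromelysins Mmp3 and Mmp10, the matrilysin Mmp7 and the collagenase genes Mmp1a and Mmp1b had log2 fold changes between -0.05 and 0.02. Mmp1a and Mmp1b are close copies of each other, so their probe sets may share signal and their values are uncertain.

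Several of these genes lie beside each other on mouse chromosome 9 and carry an AP-1 motif close to their start. AP-1 is the Fos and Jun factor through which many collagenase and stromelysin genes are known to respond to cytokines. RefSeq promoter windows were matched for 49 of the 79 members, which gave 53 windows of 250 bases before the start. The motif TGANTCA, which reads the same on both strands, was in 11 of these 53 windows (20.8%), and in 2217 of 32851 windows of all genes (6.75%). The shares of the other 3 motifs were 5.66% of member windows and 5.85% of all windows for the STAT6 type, 3.77% and 2.44% for the PU.1 type, and 3.77% and 3.90% for the NF-kB type. All 4 motifs were chosen with results known, those 3 after the members' values were seen, and a match is a description of letters. Of the 11 members 7 were Mmp genes of chromosome 9. Not every member there had the motif: the window of Mmp27, between those of Mmp10 and Mmp20, lacked it. A further annotated window of Mmp7 lacked it too. The stretches around 6 of the 7 matches (GRCm38.p6, 5′ to 3′ on the strand of the gene) are shown with the motif in capitals. These 6 are the matches in the collagenases, stromelysins and matrilysin described above, and the seventh gene, which has the motif too, is given below.
Mmp3 (chr9:7445759-7445799, plus strand): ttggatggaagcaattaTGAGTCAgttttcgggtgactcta
Mmp10 (chr9:7502262-7502302, plus strand): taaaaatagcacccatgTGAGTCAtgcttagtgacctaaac
Mmp13 (chr9:7272462-7272502, plus strand): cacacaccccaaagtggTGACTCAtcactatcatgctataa
Mmp7 (chr9:7692010-7692050, plus strand): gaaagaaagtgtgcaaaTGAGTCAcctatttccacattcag
Mmp1a (chr9:7464051-7464091, plus strand): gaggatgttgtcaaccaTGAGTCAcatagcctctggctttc
Mmp1b (chr9:7388096-7388136, minus strand): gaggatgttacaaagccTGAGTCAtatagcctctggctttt

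The motif began 46 bases before the start of Mmp3, 63 before that of Mmp10 and of Mmp7, 35 before that of Mmp13, 73 before that of Mmp1a and 93 before that of Mmp1b. The seventh gene was Mmp20, the enamel protease, with TGAATCA beginning 95 bases before its start. Mean intensities were 49.4 for Mmp3, 31.5 for Mmp10, 30.2 for Mmp13 and Mmp20, 29.3 for Mmp7, 21.1 for Mmp1a and 20.1 for Mmp1b, where the array medians were 47.6 to 48.5 and the lowest probe sets read 18.3 to 18.6. Their log2 fold changes lay between -0.16 and 0.02, and 0 of the 7 had an unadjusted p under 0.05 in limma. The other members with the motif were Adam19, Adam20, Adam25 and Adam29. For Adam19 it was in 1 of 3 annotated windows, as TGAGTCA beginning 131 bases before the start. The stretches of Adam20 and Adam25, neighbours on chromosome 8, read the same over the 41 bases around the motif, and are shown for that reason.
Adam20 (chr8:40793049-40793089, plus strand): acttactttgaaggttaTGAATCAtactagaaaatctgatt
Adam25 (chr8:40751987-40752027, plus strand): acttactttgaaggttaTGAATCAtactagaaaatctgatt

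The membrane-anchored MMPs, which work on matrix next to the cell, had 3 positive and 2 negative log2 fold changes, from -0.08 to 0.14. Mmp14, the collagenase that activates pro-Mmp2, had intensities of 535, 578 and 507 on the Scnn1b-Tg arrays, against 694, 364 and 569 on the wild-type arrays. The wild-type arrays spanned 0.93 on the log2 scale and the Scnn1b-Tg arrays 0.19, and all Scnn1b-Tg values fell inside the wild-type range. Its log2 fold change of 0.04 ± 0.22 (95% interval -0.47 to 0.55) was -0.22 when wild type replicate 2 was dropped and 0.25 when wild type replicate 1 was, so its sign turned with the array left out. Mmp23 gave 0.14 ± 0.08 with intensities of 53.00, 61.4 and 57.8 on the Scnn1b-Tg arrays, against 56.3, 50.8 and 48.8 on the wild-type arrays. Mmp17, an enzyme held by a GPI anchor, had intensities of 38.7, 37.4 and 38.5 on the Scnn1b-Tg arrays, against 39.01, 43.5 and 38.8 on the wild-type arrays, fully apart but close to each other, and a log2 fold change of -0.08 ± 0.06 that was -0.03 without wild type replicate 2. Mmp24, known from nervous tissue, gave -0.08 ± 0.06, and its lowest array, Scnn1b-Tg replicate 3, stood below all others.

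Among the other secreted MMPs 3 of 6 were positive and none had an unadjusted p under 0.05. Mmp19 had intensities of 90.2, 83.9 and 77.4 on the Scnn1b-Tg arrays, against 115, 86.9 and 74.8 on the wild-type arrays. Wild type replicate 1 was the highest of the 6 arrays, and without it the log2 fold change of -0.12 ± 0.15 was 0.05. Mmp11, the stromelysin of stromal cells that is activated by furin inside the cell, measured 129, 121 and 133 on the Scnn1b-Tg arrays, against 135, 113 and 129 on the wild-type arrays and gave 0.03 ± 0.08. Mmp28, an enzyme of epithelium and macrophages, measured 74.9, 75.6 and 69.7 on the Scnn1b-Tg arrays, against 68.7, 73.4 and 73.04 on the wild-type arrays and gave 0.03 ± 0.05.

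The ADAMs that carry a working catalytic site and are found outside the germ line held 3 of the 5 members whose log2 fold change was over 0.2 in size: Adam8, Adam15 and Adam19. Over all members 6.33% passed that size, against a background of 4.15% of genes. Adam15, a disintegrin of endothelium and epithelium, had intensities of 185, 216 and 229 on the Scnn1b-Tg arrays, against 177, 154 and 195 on the wild-type arrays. Scnn1b-Tg replicate 1 lay below wild type replicate 3, so the groups overlapped. The log2 fold change was 0.26 ± 0.11 (95% interval 0.01 to 0.52, limma adjusted p = 0.817). Without wild type replicate 2 it was 0.17, and with both arrays that stood apart left out it was 0.11.

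Adam19, which sheds neuregulins, had intensities of 154, 149 and 154 on the Scnn1b-Tg arrays, against 145, 111 and 142 on the wild-type arrays. The lowest Scnn1b-Tg array was close above the highest wild-type array, and wild type replicate 2 was well below the rest. The log2 fold change of 0.21 ± 0.10 (limma adjusted p = 0.867) was 0.08 without that array. The main sheddases gave values close to 0. Adam17, which releases tumour necrosis factor and ligands of the epidermal growth factor receptor, had intensities of 312, 312 and 327 on the Scnn1b-Tg arrays, against 327, 315 and 314 on the wild-type arrays, and its log2 fold change was -0.01 ± 0.04 (95% interval -0.11 to 0.10). Adam10, the sheddase of Notch and cadherins, measured 411, 421 and 421 on the Scnn1b-Tg arrays, against 419, 413 and 387 on the wild-type arrays, a log2 fold change of 0.04 ± 0.05 (95% interval -0.07 to 0.15). Adam17 was named for its role after its values were seen.

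Adam9 gave 0.02 ± 0.04, Adam12 -0.02 ± 0.10 and Adam28, an ADAM of lymphocytes and epithelium, 0.08 ± 0.07. Adam33, known as an asthma susceptibility gene in people, had intensities of 64.00, 67.8 and 68.8 on the Scnn1b-Tg arrays, against 74.6, 68.7 and 68.7 on the wild-type arrays. Its groups overlapped and the log2 fold change was -0.08 ± 0.05. The partners that carry Adam10 and Adam17 to the surface were read beside them: of 10 listed, 6 were positive and 4 negative. Tspan12, a tetraspanin that binds Adam10, measured 402, 401 and 362 in Scnn1b-Tg lung, against 512, 530.4 and 515 in wild-type lung, a log2 fold change of -0.42 ± 0.06 with a limma adjusted p of 0.129, and its arrays did not overlap. Tspan5, another Adam10 tetraspanin, gave 0.20 ± 0.09 with overlapping arrays. Of the 10 partners 3 were higher with arrays that did not overlap (background 6.26% of genes). These were Tspan14 (0.20 ± 0.08), Rhbdf2 (0.18 ± 0.08) and Frmd8 (0.12 ± 0.05). Among 16 measured substrates of ADAM shedding 14 were positive (background 53.2% of genes) with a median of 0.05. An unadjusted limma p under 0.05 was found for 3 of them, all higher (background 3.96%): Tnfrsf1b, Il1r2 and Notch2. Tnfrsf1b, a receptor of tumour necrosis factor, gave 0.33 ± 0.06 with a limma adjusted p of 0.225. The receptor tyrosine kinase gene Axl, not among those 3, gave 0.23 ± 0.11 with overlapping arrays. With Scnn1b-Tg replicate 3 dropped, Axl gave 0.09 and Tspan5 0.11.

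The ADAMs that lack a working catalytic site had 4 of 11 positive values and a median of -0.0022. Adam23, a neuronal adhesion protein, had the largest value of this group and the third largest of all members. Its intensities were 106, 114 and 136 on the Scnn1b-Tg arrays, against 95.8, 80.7 and 123 on the wild-type arrays. Each group had its highest value on replicate 3, the groups overlapped, and the log2 fold change was 0.26 ± 0.16 (limma adjusted p = 0.9). With 1 array left out it ran from 0.12 to 0.42, and it was 0.02 with both arrays that stood apart left out. Adam11 measured 40.9, 39.7 and 39.9 on the Scnn1b-Tg arrays, against 40.99, 41.2 and 41.01 on the wild-type arrays, apart by less than 1 unit of intensity, with a log2 fold change of -0.03 ± 0.04. Adam3, a sperm protein, had the lowest value of the group at -0.07 ± 0.06.

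Of the other ADAMs, most of them genes of testis and epididymis, 10 of 14 were positive, with values from -0.07 to 0.18. A mean intensity under 25 was found for 7 of these 14 and for 5 of the 11 without a catalytic site, and over all members for 14 of 79 (17.7%, against 16.1% of all genes). Adam34l had intensities of 29.1, 29.3 and 24.97 on the Scnn1b-Tg arrays, against 24.2, 24.5 and 24.5 on the wild-type arrays. Scnn1b-Tg replicate 3 lay barely above the wild-type arrays, which were nearly equal. The log2 fold change was 0.18 ± 0.07 with a limma adjusted p of 0.764, and 0.47 with 16 subtracted. Adam34l has close copies, and a further probe set matches Adam34l, Adam34, Adam26a and Adam26b at once, so signal between these genes may be shared. Adam1a, a fertilin gene, measured 49.2, 54.01 and 51.6 on the Scnn1b-Tg arrays, against 51.3, 53.5 and 53.5 on the wild-type arrays with a log2 fold change of -0.03 ± 0.05, and Adam30 gave -0.07 ± 0.07. Germ cell markers were near the lowest values on all arrays: their sum over 6 genes lay between 155 and 161 on the Scnn1b-Tg arrays, against between 157 and 163 on the wild-type arrays. Of these 6 markers 4 had a mean under 25.

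The ADAMTS proteases that cut aggrecan and versican, large proteoglycans of the matrix, had 5 of 7 positive values and a median of 0.08. Adamts1 had intensities of 514, 630.5 and 611 on the Scnn1b-Tg arrays, against 521, 586 and 491 on the wild-type arrays. Scnn1b-Tg replicate 1 lay below the wild-type mean, the groups overlapped, and the log2 fold change was 0.13 ± 0.10. Adamts4 gave 0.14 ± 0.11 and was 0.02 without wild type replicate 2. Adamts9 measured 360.3, 432 and 478 on the Scnn1b-Tg arrays, against 436, 457 and 462 on the wild-type arrays. The wild-type arrays were close together, while Scnn1b-Tg replicate 1 was low, and the log2 fold change of -0.10 ± 0.10 was 0.01 without it. The 5 further probe sets of Adamts9 disagreed in sign. The lowest gave a log2 fold change of -0.15, and all the others were positive, from 0.05 to 0.15. Adamts20 was dim, at 26.9, 28.8 and 27.4 on the Scnn1b-Tg arrays, against 26.5, 26.8 and 25.9 on the wild-type arrays, and its arrays did not overlap at a log2 fold change of 0.07 ± 0.05.

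Of the procollagen N-proteinases, which trim collagen before fibrils form, Adamts3 gave 0.00058 ± 0.06 and Adamts14 0.03 ± 0.05, and Adamts3 had 15 further probe sets. Those gave log2 fold changes between -0.12 and 0.15. Among the other ADAMTS proteases 6 of 9 were positive. Adamts17, an enzyme of fibrillin-rich matrix, had intensities of 456, 501 and 628 on the Scnn1b-Tg arrays, against 466, 420.0 and 527 on the wild-type arrays. Scnn1b-Tg replicate 3 was the highest array, and without it the log2 fold change of 0.16 ± 0.13 was 0.03. Its 4 further probe sets gave values between -0.06 and 0.22. Adamts6 measured 52.3, 47.6 and 49.5 on the Scnn1b-Tg arrays, against 58.3, 57.4 and 47.4 on the wild-type arrays and gave -0.12 ± 0.09, the lowest value of the group.

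Among the ADAMTS-like proteins, which bind fibrillin microfibrils and have no protease domain, 2 of 5 were positive. Adamtsl3 had intensities of 53.4, 57.05 and 69.5 on the Scnn1b-Tg arrays, against 54.6, 58.5 and 46.6 on the wild-type arrays and a log2 fold change of 0.17 ± 0.12, which was 0.06 without Scnn1b-Tg replicate 3. Adamtsl2, a microfibril protein that restrains TGF-β, measured 441, 445 and 439.8 on the Scnn1b-Tg arrays, against 361, 407 and 462 on the wild-type arrays. The 3 Scnn1b-Tg arrays lay within 6 units of each other inside the wild-type range, and the log2 fold change was 0.12 ± 0.09. It was 0.03 with wild type replicate 1 dropped and 0.21 with wild type replicate 3 dropped. Adamtsl4, which takes part in laying down fibrillin, gave -0.05 ± 0.05.

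The brighter members varied more among the wild-type lungs than among the Scnn1b-Tg lungs. Of the 18 members with a mean intensity over 100, 15 had a positive log2 fold change (83.3%, against 53.0% of the 6038 genes of that brightness), with a median of 0.07 against 0.01. This limit was set after the values were seen. Wild type replicate 2 was the lowest of the 6 arrays for 10 of the 18 (55.6%, against 28.4% of genes of that brightness). Without that array 12 of the 18 were positive, and without it and Scnn1b-Tg replicate 3 together 9 of 18 were, where 39.5% of genes over 100 were positive. The wild-type range was the wider of the pair for 12 of the 18 (66.7%, against 51.8% of genes of that brightness). The median log2 range over the wild-type arrays was 0.33 for these members, against 0.17 over the Scnn1b-Tg arrays, and the same ranges for all genes over 100 were both 0.17. Adamts10 and Adamts12, named after their values were seen, were both highest on wild type replicate 1 and lowest on wild type replicate 2 among the wild-type arrays. Adamts10 measured 353, 341 and 325 on the Scnn1b-Tg arrays, against 444, 300.4 and 333 on the wild-type arrays, and Adamts12, a protease of cartilage and stroma, 155, 141 and 199 on the Scnn1b-Tg arrays, against 200.2, 137 and 143 on the wild-type arrays.

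**Figure D4:**
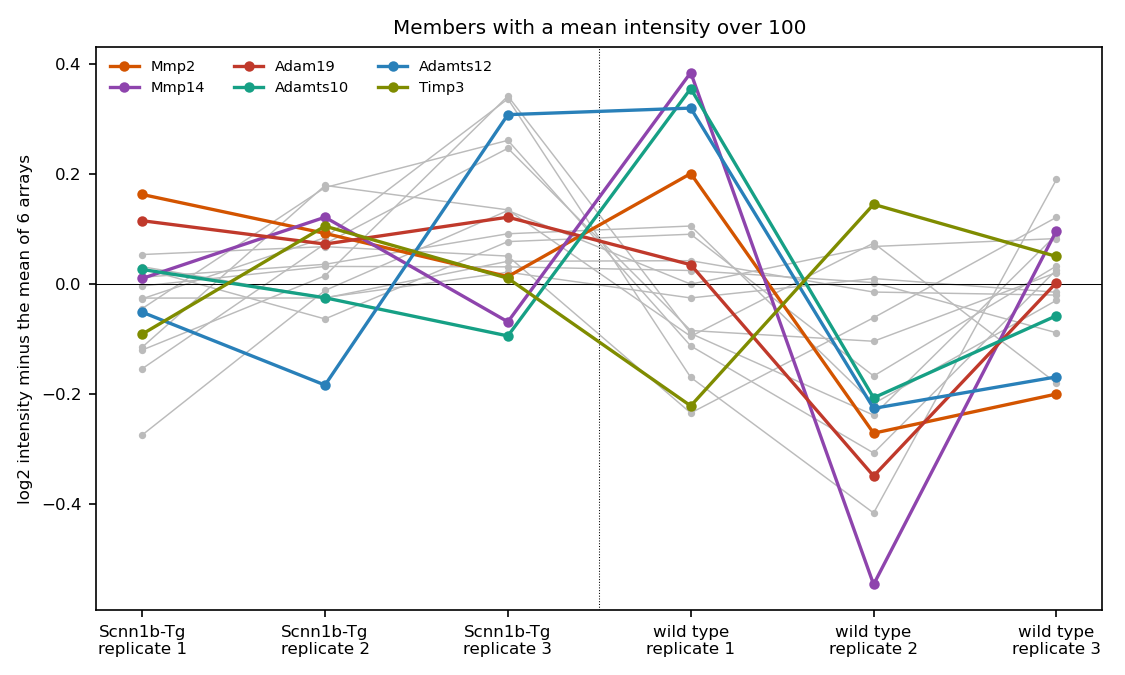
Log2 intensity minus the mean of the 6 arrays for the 18 members with a mean intensity over 100, with 6 of them in colour and the others in grey, and Scnn1b-Tg arrays left of the dotted line. Wild type replicate 2 is the lowest array for 10 of the 18, and wild type replicate 1 is high for Mmp14, Adamts10, Adamts12 and Mmp2.

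Genes of the matrix that these enzymes cut also had low values on wild type replicate 2. The fibronectin gene Fn1 measured 1768, 1807 and 1748 in Scnn1b-Tg lung, against 1626, 1067 and 1531 in wild-type lung, and the collagen gene Col1a1 1268, 1306 and 1305 in Scnn1b-Tg lung, against 1312, 813 and 1079.8 in wild-type lung, each lowest on wild type replicate 2. Fn1 gave a log2 fold change of 0.36 ± 0.15, which was 0.17 with that array dropped. Col1a1 gave 0.30 ± 0.16, which was 0.12 with it dropped. Of 19 measured matrix substrates 15 were positive, 1 had an unadjusted p under 0.05 and 0 were called, with a median of 0.12. Fibroblast markers summed between 7367 and 7896 on the Scnn1b-Tg arrays, against between 6488 and 8553 on the wild-type arrays. Smooth muscle and pericyte markers summed between 1852 and 2126 on the Scnn1b-Tg arrays, against between 1453 and 2269 on the wild-type arrays. Both sums had their extremes in wild type, with wild type replicate 1 highest and wild type replicate 2 lowest. The brightest fibroblast markers were Col1a1, Col1a2 and Col3a1, which are also in the list of matrix substrates. Pdgfra measured 953, 1036 and 973 in wild-type lung and was highest on wild type replicate 2. Tcf21 (703, 716 and 629) and Dcn (336, 437 and 461) were higher there than on wild type replicate 1. Dpt and Lum were lowest there among the wild-type arrays. Club cell markers had their highest sum on wild type replicate 2 and lay between 6908 and 7417 on the Scnn1b-Tg arrays, against between 7678 and 9619 on the wild-type arrays. The part of these cell markers in the spread of the bright members was not tested.

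Factors that activate or restrain the family were read from a separate list of 13 measured genes. Of these 9 were positive and 4 negative, with a median of 0.11, and 0 were called. An unadjusted limma p under 0.05 was found for 2, both higher (background 3.96% of genes). The same 2, Plau and Lrp1, had arrays that did not overlap (background 6.26%). Plau gave 0.18 ± 0.05, with intensities of 43.1, 43.4 and 46.1 in Scnn1b-Tg lung, against 38.9, 38.1 and 40.5 in wild-type lung. Furin, the convertase that removes the propeptide of ADAMs, ADAMTSs and membrane MMPs, gave 0.24 ± 0.11 with intensities of 136, 139 and 168 in Scnn1b-Tg lung, against 127, 110.1 and 138 in wild-type lung. The value was 0.14 with Scnn1b-Tg replicate 3 dropped and 0.05 with wild type replicate 2 dropped as well. Lrp1, the receptor that takes up MMPs and TIMPs from outside the cell, gave 0.23 ± 0.10, and measured 284, 309 and 317 in Scnn1b-Tg lung, against 282, 223 and 274 in wild-type lung, barely apart. With wild type replicate 2 dropped it gave 0.13. Among 11 related genes, 6 positive, Adamdec1, an ADAM-like gene of macrophages and dendritic cells, measured 50.2, 52.9 and 48.5 in Scnn1b-Tg lung, against 46.2, 41.03 and 47.7 in wild-type lung, a log2 fold change of 0.17 ± 0.07. Pcolce2, which helps the trimming of procollagen, gave -0.21 ± 0.14 and was highest on wild type replicate 2. Its value was -0.08 with that array dropped and -0.38 with wild type replicate 1 dropped.

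**Figure D5:**
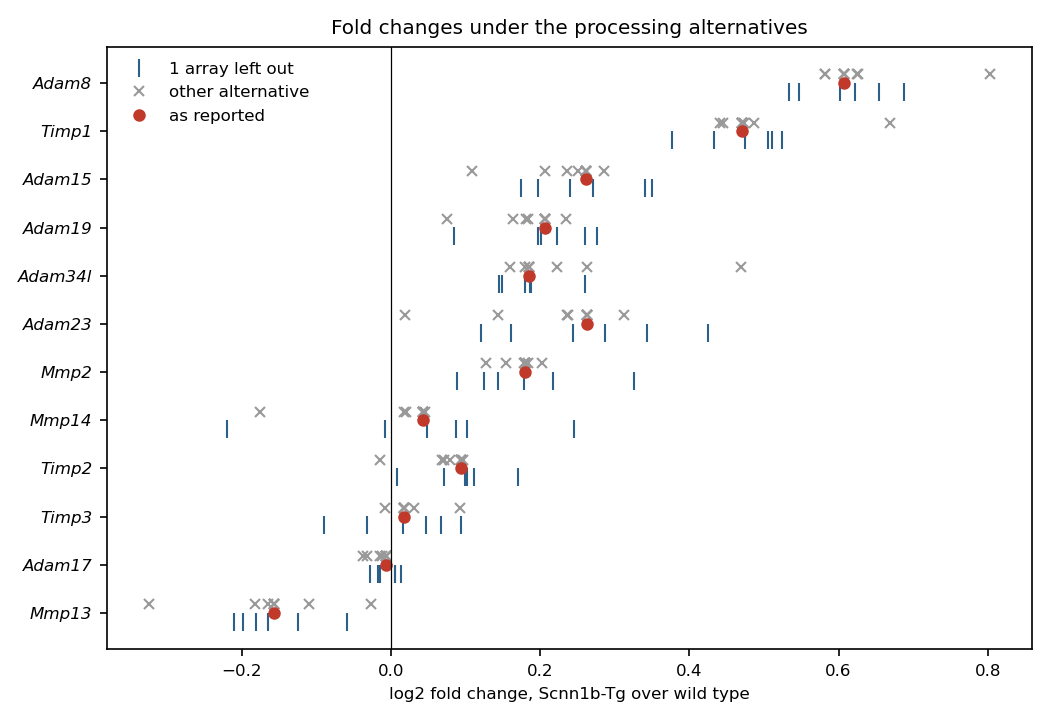
Log2 fold change of Scnn1b-Tg over wild type for 12 members as reported (red points), with 1 array left out (blue bars) and under the other processing alternatives (grey crosses). Adam8 stays between 0.53 and 0.80 and Timp1 between 0.38 and 0.67, while Mmp14, Timp2, Timp3 and Adam17 lie on both sides of 0.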

How the data were processed

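Lung RNA was extracted with Trizol, labelled with biotin and, per the labels' protocols, measured on Affymetrix arrays. The authors deposited 1 intensity for each probe set and array. The submitters' processing notes name RMA, with its version not given in the sources used here. The linear scale was read from the values (medians 47.6 to 48.5, lowest 18.3 to 18.6). Precision is limited by having 3 arrays a group. The platform annotation gave 1 symbol to 21780 of 28815 probe sets and several to 1605, while 5430 were unnamed here. The brightest probe set of each symbol gave 19935 genes. The log2 of each intensity entered a fit in limma 3.58.1 under R 4.3.3 (genotype as the only term, two-sided tests, Benjamini-Hochberg adjustment over all genes), and the fit was tested on simulated data. The errors there were drawn from the variance model of the fit itself, so that test checks the code and not these arrays. Members, roles, 21 gene lists, alternatives and motifs were chosen with earlier results of these data known. Genes were named by rule: the TIMPs, members with an unadjusted p under 0.05, the highest, lowest and brightest of each role, and up to 2 genes of each list. Others named after their values were seen were Adam19, Adam11, Adam17, Adamts10, Adamts12, Adamts20, Mmp17, members quoted within a role and further list genes. The labels do not state whether the replicate numbers pair the samples, and the main fit took them as unpaired. Same-numbered samples correlated only weakly, at 0.03, 0.03 and 0.04, in their deviations from group means. RefSeq promoter windows were searched for 4 motifs, of which the STAT6, PU.1 and NF-kB types were added after the values were seen. The alternatives covered scaling, dim genes, probe set choice, variance model, array weights and arrays left out. Protein sequences were not analysed here.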

Additional observations from a re-analysis of the deposited data

How the results depend on the processing

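The count of called genes was 1 as reported. It was 39 when the 6645 dimmest genes were dropped, 36 when limma used an intensity trend with robust variance, 23 with 16 subtracted before log2, 3 with the replicate number as a block, 6 with wild type 2 and Scnn1b-Tg 3 both left out, and between 0 and 5 with 1 array left out (5 when Scnn1b-Tg replicate 3 was dropped, 0 when wild type replicate 3 was, where Scnn1b had a limma adjusted p of 0.0559). Among the members Adam8 was called in the first 3 of these, and 0 members were called in the other 13 of 16 alternatives. The replicate block gave 7 members with an unadjusted p under 0.05 against 4, and a limma adjusted p of 0.222 for Adam8. Every sample correlated best with its own number, though weakly, a hint from the data and not from the design. The replicate block changed no call of a member. The number of members higher in Scnn1b-Tg was 49 of 79 as reported, 32 of 79 with median centring and 29 of 44 without the dimmest genes, where fewer members were tested. With 1 array left out it ran from 43 to 50. The median over members was 0.01 as reported, -0.0123 with median centring, 0.0274 without the dimmest genes, 0.0335 with 16 subtracted, and 0.0080 to 0.02 with 1 array left out. Centring lowered every log2 fold change by the same amount, by construction, and moved the median of all genes to -0.02. Subtracting 16 enlarges the fold changes of dim genes by construction. For the other changes the cause was not tested. Signals near the lowest intensities limit what can be seen for the dim germ line ADAMs and for Mmp1a and Mmp1b.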
